A study of Mus musculus with 6 samples.

Results

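Brown and beige fat burn fuel to make heat, and 10 genes that mark or control this programme were followed here in mouse fat: Prdm16, Ebf2, Ppargc1a, Ppara and Zic1, which encode regulators of transcription, Ucp1, Cox8b and Dio2, which encode mitochondrial and hormone-activating proteins, and Kcnk3 and Tmem26, which encode membrane proteins. They were chosen by name, and all 10 were found among the 12163 genes of the deposited table. The tissue came from wild type mice of the inbred strain C57BL/6. Fat that had not been grafted gave 3 libraries and fat taken 7 days after grafting gave 3 more, and the submitters call the libraries of a group biological replicates. Depot, graft site, age and sex are not in the labels, which also do not say whether donor or host cells gave the RNA.

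In a brown adipocyte, noradrenaline acts through beta-adrenergic receptors and cyclic AMP to start lipolysis and to switch on Ppargc1a, Dio2 and Ucp1. UCP1 lets protons re-enter the mitochondrial matrix without making ATP, so that the energy of fuel oxidation leaves as heat. PRDM16, EBF2 and PPAR family receptors hold the identity of these cells, PGC-1α, the product of Ppargc1a, drives their mitochondrial content, and thyroid hormone made inside the cell by the deiodinase DIO2 amplifies the response. Beige adipocytes run a similar programme within white fat and are often recognised by Tmem26, while Zic1 marks classical brown fat as opposed to beige and white fat.

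The genes' regulatory starts are shown first because cyclic AMP is an input to Ppargc1a, Dio2 and Ucp1 among them. RefSeq promoter windows on GRCm38.p6 were at hand for 8 of the 10 genes, without Ebf2 and Kcnk3, and the 250 bases before the start were searched on both strands. The letters searched were the core of the cyclic AMP response element (TGACG), the nuclear receptor hexamer (AGGTCA), the same hexamer preceded by A (AAGGTCA, bound by estrogen-related receptors), DR1 (a pair of AGGTCA hexamers 1 base apart) and the EBF palindrome (TCCC, any 2 bases, GGGA). TGACG lay in the windows of Dio2, Ppargc1a, Ucp1 and Ppara, and was held by 17.8% of all 32851 windows of this length. The full element TGACGTCA, a search added after the windows had been seen, lay in that of Dio2 and in 1.55% of all windows, and each copy of it also counts as a TGACG match on both strands. AGGTCA lay in that of Ucp1 and in 14% of all windows, and each AAGGTCA or DR1 match contains it. No member's window held AAGGTCA (4.08% of all windows), DR1 (0.0335%) or the EBF palindrome (0.779%). A match describes letters only, and a window without one says nothing about a factor.

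The windows below set Dio2, which rose in grafts, beside Ppargc1a and Cox8b, which fell, and Ucp1, and capitals mark the matches. Dio2 is at chr12:90739039-90739288 (minus strand), Ppargc1a at chr5:51567726-51567975 (minus strand), Ucp1 at chr8:83290098-83290347 (plus strand) and Cox8b at chr7:140900447-140900696 (minus strand).
Dio2: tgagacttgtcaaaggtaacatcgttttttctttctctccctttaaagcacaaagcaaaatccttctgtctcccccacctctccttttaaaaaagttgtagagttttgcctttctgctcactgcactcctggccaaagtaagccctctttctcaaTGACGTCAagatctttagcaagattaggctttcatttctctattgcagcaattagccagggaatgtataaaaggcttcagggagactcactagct
Ppargc1a: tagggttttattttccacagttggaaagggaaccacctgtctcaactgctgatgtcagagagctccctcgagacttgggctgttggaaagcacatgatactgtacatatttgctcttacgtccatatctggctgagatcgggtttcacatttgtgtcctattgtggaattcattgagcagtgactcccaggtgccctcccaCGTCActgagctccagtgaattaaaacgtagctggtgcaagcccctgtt
Ucp1: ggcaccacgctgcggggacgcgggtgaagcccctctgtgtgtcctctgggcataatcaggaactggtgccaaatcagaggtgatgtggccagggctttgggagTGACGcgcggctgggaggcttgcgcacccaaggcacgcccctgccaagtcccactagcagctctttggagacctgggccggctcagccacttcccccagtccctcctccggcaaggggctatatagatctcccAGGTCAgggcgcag
Cox8b: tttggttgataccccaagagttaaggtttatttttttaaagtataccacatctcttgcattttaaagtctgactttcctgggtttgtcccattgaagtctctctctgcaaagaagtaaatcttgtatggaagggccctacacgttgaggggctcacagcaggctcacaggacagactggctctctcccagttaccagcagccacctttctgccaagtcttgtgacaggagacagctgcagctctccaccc
The RefSeq start of Dio2 lies 600 bases upstream of the gene start annotated in GENCODE M21, and that of Ppara 793 bases downstream of it, while those of Ppargc1a, Ucp1 and Cox8b lie within 4 bases of it. Counted back from the RefSeq start, the Dio2 element spans bases -95 to -88. The Ppargc1a match, read on the minus strand as CGTCA, spans -49 to -45. The Ucp1 window holds TGACG at -147 to -143 and AGGTCA at -14 to -9. The Cox8b window holds none of the letters searched and 1 CpG dinucleotide, against 2 for Dio2, 5 for Ppargc1a and 12 for Ucp1, with a median of 6 over all windows.

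The listed genes took 13027776 to 15924559 reads in each library, and levels are given as normalized counts, in which each library's reads were scaled by a factor close to 1. The table had been selected for difference between the groups: 99.2% of the 10854 tested genes had an unadjusted limma p under 0.05. With limma on log2(value + 1), 4251 genes were lower in grafts (39.2% of those tested) and 4479 were higher (41.3%) at a Benjamini-Hochberg adjusted p under 0.05, and the values of the groups did not overlap for 97.6%. A call or a gap between groups is therefore near the rule in this table, and the sizes of the changes carry most of what distinguishes the 10 genes. The median log2 fold change of all tested genes was 0.28. Its sign depended on the genes and libraries used. The median was -0.30 without the filter on low values and -0.32 to -0.30 without a graft. It was 0.37 to 0.39 without a library from before grafting. Rescaling by median ratios moved the 0.28 to 0.15, by totals to 0.14 and by upper quartiles to 0.07. It was -1.01 with ribosomal protein genes set to no change. The 51.3% of calls that were higher became 44.5%, 43.4%, 41.1% and 25.3%. Each of the 10 genes kept its direction under all 4 rescalings.

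As a check of the tissue, all 10 white adipocyte markers were listed and lower in grafts, with their summed level at 324086 to 486496 before grafting and 6424 to 25846 in grafts. Adipoq, which encodes the adipocyte hormone adiponectin, went from 33177 to 380.2, and Plin1, a lipid droplet coat gene, reached a graft mean of 670.1 that was 245.9 without graft replicate 1. Macrophage markers, 9 of 10 listed and 8 of them higher, summed to 24649 to 28092 before and 195815 to 208803 after, with Adgre1, the F4/80 antigen, going from 851.8 to 7010. Fibroblast and progenitor markers, 9 of 10 listed, with 5 higher and 2 lower, summed to 114629 to 144158 before and 606939 to 1026910 after. B and T cell markers, all 8 lower, summed to 5736 to 11236 before and 257.1 to 677.9 after. None of 10 skeletal muscle markers was listed. In a table selected for difference, a gene that is not listed may be unexpressed or unchanged between groups. The 8 neutrophil markers were all higher. In such bulk tissue, fewer cells of a type and less RNA per cell cannot be told apart, and the part of these shifts in the results below was not tested.

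Of the 10 genes, 9 could be tested: 6 were called lower, 2 were called higher and Tmem26 was not called, while Ucp1 was too scarce for the filter of 10 normalized counts in 3 libraries. Zic1 and Dio2 passed this filter through the grafts alone, where they were high. Ppargc1a, Ppara and Cox8b passed it only with the libraries before grafting, where they were high. The p-values of these genes carry that limit. Over all tested genes 39.2% were lower and 41.3% higher, and nothing particular to the 9 is read from their counts. The median log2 fold change of the 9 was -2.01, also with Zic1 at its bound, against 0.28 for all tested genes. Without Zic1, which had no read before grafting, the values ran from -5.94 for Kcnk3 to 3.35 for Dio2. The groups of all 9 did not overlap, which held for 97.6% of all tested genes.

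**Figure D1:**
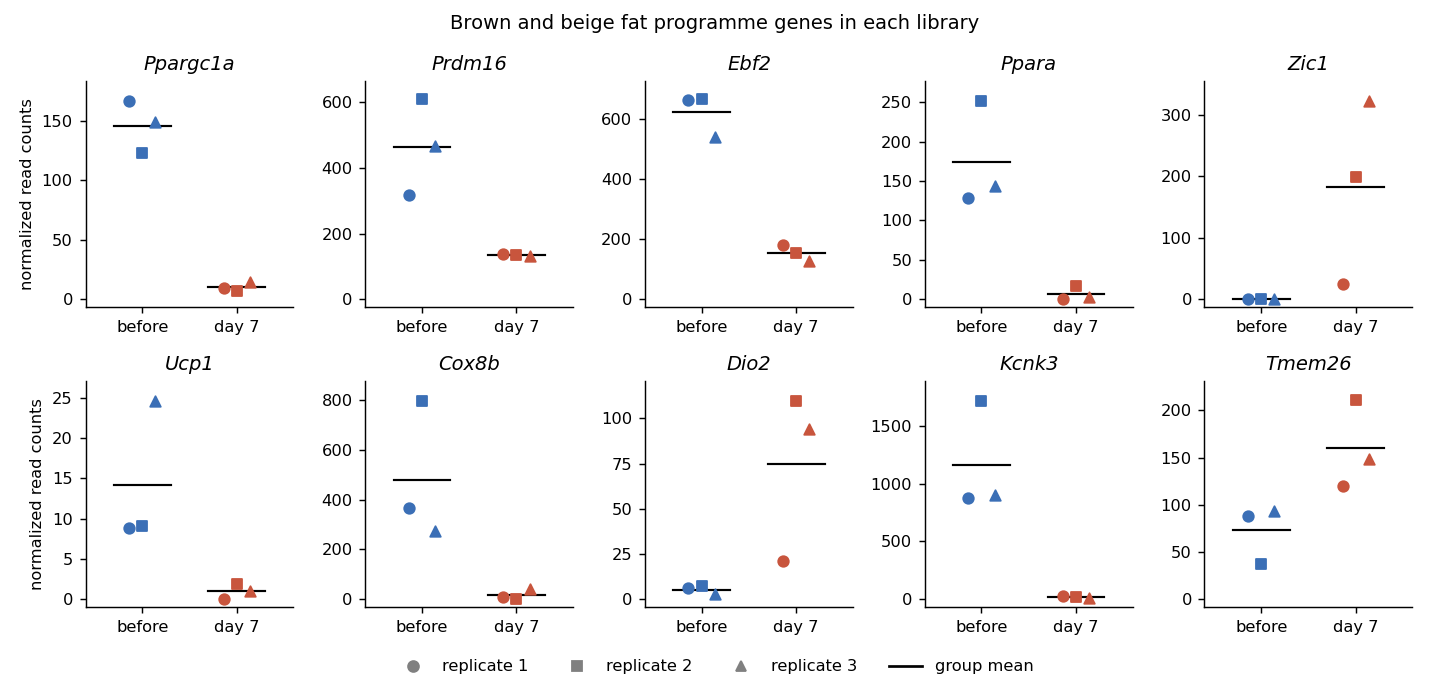
Normalized read counts (vertical axes, linear, each gene on its own scale) of the 10 genes in the 3 libraries before grafting (blue) and the 3 grafts of day 7 (red), with symbols for replicate numbers and a bar for each group mean. In 7 panels the grafts sit below all libraries before grafting, and in the panels of Zic1, Dio2 and Tmem26 they sit above.

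Among the regulators of transcription, Prdm16 encodes a zinc finger coregulator that directs precursors towards brown and beige fat. It lies on chromosome 4 (154316125 to 154636873, minus strand, GRCm38, 17 exons in its first annotated transcript). Prdm16 had 318.5, 608.8 and 467.2 normalized counts in replicates 1, 2 and 3 before grafting and 136.6, 133.8 and 131.6 in the grafts. The 3 grafts were nearly alike, with a coefficient of variation of 1.88%, while the libraries before grafting spread over a 1.91-fold range. At 136, 138 and 133 reads, counting error alone would usually spread the grafts more. Their closeness is therefore not read as a trait of Prdm16. The mean of 465 ± 145 fell to 134.0 ± 2.5 (SD, n = 3 each), which is -1.74 on the log2 scale (SE 0.23, limma adjusted p = 0.00091), so that 28.8% of the level was left, the highest share among the 6 genes called lower.

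Ebf2, an early B cell factor that marks brown and beige precursors and opens the chromatin of their genes, lies on chromosome 14 (67233292 to 67430918, plus strand). It had 662.6, 665.6 and 542.0 normalized counts before grafting and 181.8, 154.2 and 127.6 in the grafts. Every graft was at least 2.98-fold below every library before grafting. The mean fell from 623 ± 71 to 154.5 ± 27.1 (log2 fold change -2.01, SE 0.17, limma adjusted p = 7.6e-05), leaving 24.8%. Its listed paralogues moved alongside it: Ebf1, which also acts in adipocyte differentiation, fell from 1746 to 729.0 (log2 fold change -1.26) and Ebf3 from 1119 to 297.4 (-1.90).

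Ppargc1a encodes PGC-1α, the cold- and cyclic AMP-induced coactivator of mitochondrial biogenesis, on chromosome 5 (51454250 to 51567726, minus strand). It had 166.6, 122.6 and 148.5 normalized counts before grafting and 9.0, 6.8 and 14.8 in the grafts. The libraries before grafting were close together and all lay at least 8.26-fold above the highest graft. The mean fell from 145.9 ± 22.1 to 10.2 ± 4.2 (log2 fold change -3.76, SE 0.33, limma adjusted p = 9.8e-05), or 14.3-fold. The other members of its family did not move as one. Ppargc1b, a related coactivator, fell from 227.4 to 77.3 (-1.49, SE 0.26). Pprc1, the third and more distant member, rose from 647.4 to 1133 (0.80, SE 0.11), a call lost with ribosomal protein genes at no change (0.06).

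Ppara encodes the fatty acid-sensing nuclear receptor PPARα, which switches on genes of fatty acid oxidation, on chromosome 15 (85734983 to 85802819, plus strand). It had 128.2, 251.2 and 143.6 normalized counts before grafting and 0, 16.5 and 3.0 in the grafts. Replicate 2 was the highest library of each group. The mean fell from 174 ± 67 to 6.5 ± 8.8 (log2 fold change -5.35, SE 0.91, limma adjusted p = 0.0041). The graft mean rested on graft replicate 2 and was 1.48 without it. The log2 fold change was -4.33 without graft replicate 1 and -6.40 without graft replicate 2, both called. Of the related receptors, Pparg, the master regulator of fat cell formation, fell from 3514 to 220.1 (-4.17, SE 0.38), or to 139.4 without graft replicate 1. Ppard, which is expressed in most tissues, had 766.4 before and 1040 after. Its log2 fold change of 0.44 was called (limma adjusted p = 0.0383), but it was 0.25 to 0.33 and not called after median ratio, total or upper quartile rescaling, turned to -0.30 with ribosomal protein genes at no change, and lost its call without before replicate 1 (0.42) or 3 (0.37) and without graft replicate 2 (0.41) or 3 (0.42). The call was also lost with a replicate block (limma adjusted p = 0.0676) and without the trend (limma adjusted p = 0.1006).

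Zic1 encodes a zinc finger factor of dorsal embryonic tissues and is used as a marker of classical brown fat, on chromosome 9 (91358058 to 91365810, minus strand). No read of it was counted in any library before grafting, and the grafts had 24.1, 199.8 and 322.5 normalized counts. Graft replicate 1 was far below the other grafts, a 13.4-fold range, and still stood on 24 reads. Taking 3 reads in each library as the limit that a count of 0 allows, Zic1 was at least 61.1-fold higher in grafts (limma adjusted p = 0.00079). That p-value is limited, since Zic1 had no spread before grafting and passed the filter through the grafts alone. Without graft replicate 3, Zic1 was at least 37.5-fold higher (limma adjusted p = 0.0027, with a filter of 2 libraries). Bounds and intervals of this kind cover counting error only. The related Zic5 was also at 0 before grafting and had 4.0, 7.8 and 12.9 in the grafts, too few to be tested. Zic4, which overlaps Zic1 on the opposite strand, was not listed. Whether the counting used strand is not given, so reads of the pair may not be told apart.

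Among the effectors, Ucp1 encodes the uncoupling protein that defines heat production in brown and beige adipocytes, on chromosome 8 (83290352 to 83298452, plus strand, 6 exons). It had 8.9, 9.1 and 24.6 normalized counts before grafting and 0, 1.9 and 1.0 in the grafts. These are 43 reads in the 3 libraries before grafting and 3 reads in the 3 grafts, so the gene was scarce in both groups. The ratio of means was 14.5, with a 95% exact binomial counting interval of 4.62 to 72.7, and the mean before grafting was 9.0 without before replicate 3. An exact two-sided permutation test over the 6 libraries gave p = 0.1, the smallest that 3 against 3 allows. Without the filter on low values, limma gave a log2 fold change of -2.92 (adjusted p = 0.0076).

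Its paralogues were far more abundant and went in both directions. Ucp2, an uncoupling protein relative prominent in immune cells, rose from 4804 ± 174 to 11476 ± 1196 (log2 fold change 1.25, SE 0.11, limma adjusted p = 8.3e-05). Ucp3, the relative typical of muscle and brown fat, fell from 791 ± 234 to 17.8 ± 11.3 (-5.51, SE 0.41), or to 11.4 without graft replicate 3. Slc25a27 fell from 116.9 to 54.8 (-1.12), a call lost without any 1 of the libraries before grafting (-1.02, -1.19 and -1.16) or without graft replicate 2 (-0.85).

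Cox8b encodes a subunit isoform of cytochrome c oxidase found in heart, skeletal muscle and brown fat, on chromosome 7 (140898945 to 140900446, minus strand), with a short transcript of 360 bases. It had 365.8, 795.2 and 274.4 normalized counts before grafting and 7.0, 0 and 42.5 in the grafts. The grafts ranged from no read to 43 reads, and the graft mean of 16.5 ± 22.8 was 3.52 without graft replicate 3. The mean before grafting was 478 ± 278, and the log2 fold change was -5.94 (SE 1.21, limma adjusted p = 0.0113). This call was lost without before replicate 1 (adjusted p = 0.0537) or before replicate 2 (adjusted p = 0.0908), at log2 fold changes of -6.05 and -5.50. The log2 fold change was -4.53 without graft replicate 2 and -7.25 without graft replicate 3, both called. Cox8a, the isoform of most tissues, fell far less, from 4623 ± 894 to 2100 ± 200 (-1.13, SE 0.15, limma adjusted p = 0.00084).

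Dio2 encodes the type 2 deiodinase, which converts the prohormone thyroxine to active thyroid hormone within the cell, on chromosome 12 (90724552 to 90738438, minus strand, 2 exons). It had 5.9, 7.1 and 3.0 normalized counts before grafting and 21.1, 109.6 and 94.0 in the grafts. The lowest graft, replicate 1, was 2.97-fold above the highest library before grafting. The mean rose from 5.3 ± 2.1 to 74.9 ± 47.2 (log2 fold change 3.35, SE 0.64, limma adjusted p = 0.0075), or 14.1-fold. Dio2 passed the filter on low values through the grafts alone. With a filter of 2 libraries, the log2 fold change was 4.08 without graft replicate 1, 2.92 without graft replicate 2 and 3.03 without graft replicate 3. It was 3.04 without before replicate 3, close to the threshold (limma adjusted p = 0.045). Dio3, whose enzyme inactivates thyroid hormone, rose as well. It had 10.8, 5.1 and 3.9 normalized counts before grafting and 524.3, 329.7 and 151.3 in the grafts, with a log2 fold change of 5.40 (SE 0.51, limma adjusted p = 0.00015). Among the grafts, Dio3 was highest in replicate 1, where Dio2 was lowest.

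Of the membrane proteins, Kcnk3 encodes TASK-1, a two-pore potassium channel that sets membrane potential and is enriched in brown and beige adipocytes, on chromosome 5 (30588170 to 30625271, plus strand). It had 874.6, 1715 and 900.0 normalized counts before grafting and 26.1, 14.5 and 12.9 in the grafts. Every library before grafting lay at least 33.5-fold above every graft, the widest gap among the 6 genes that fell. The mean fell from 1163 ± 478 to 17.8 ± 7.2 (log2 fold change -5.94, SE 0.34, limma adjusted p = 1.3e-05), or 65.2-fold. The listed transcript Gm9899, which overlaps the start of Kcnk3 on the opposite strand, fell from 176.1 to 1.97 (-5.81), and reads of the pair may not be told apart. Other two-pore channels did not share one direction. Kcnk2 fell (-1.81), Kcnk13 rose from 66.6 to 641.8 (3.23), Kcnk6 rose (0.98, a call lost with ribosomal protein genes at no change, 0.24), and Kcnk5 was not called (-1.16, limma adjusted p = 0.281, or -0.52 without graft replicate 3). Kcnk4, Kcnk7 and Kcnk12 were listed and too scarce to be tested. Ebf2, Ppargc1a, Prdm16 and Dio2 also overlap annotated genes, none of them listed.

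Tmem26 encodes a transmembrane protein of unknown function used as a surface marker of beige adipocytes, on chromosome 10 (68723646 to 68782650, plus strand). It had 87.8, 37.5 and 93.4 normalized counts before grafting and 119.5, 211.4 and 148.4 in the grafts. The lowest graft was 1.28-fold above the highest library before grafting. The means were 72.9 ± 30.8 and 159.8 ± 47.0, a log2 fold change of 1.19 (SE 0.38) that missed the threshold (limma adjusted p = 0.0835). It passed when p-values were adjusted over the tested genes alone (adjusted p = 0.0164), and the log2 fold change was 0.45 with ribosomal protein genes at no change.

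**Figure D2:**
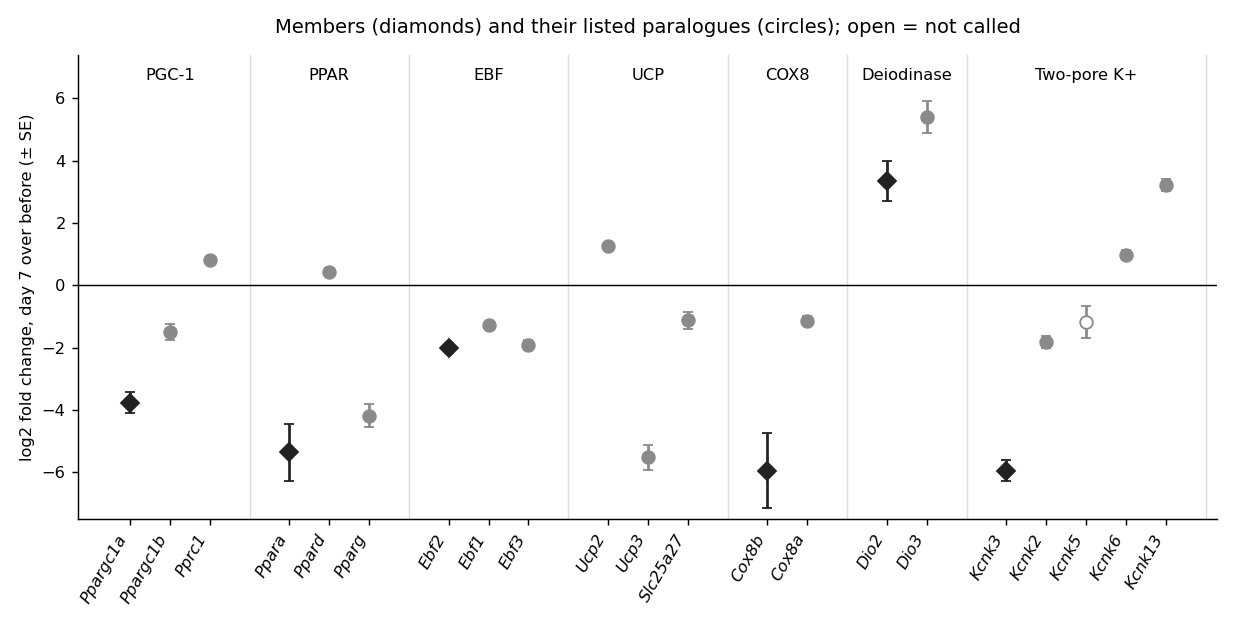
Log2 fold change of grafts over fat before grafting, with its standard error, for 6 of the 10 genes (diamonds) and the tested genes of their families (circles), with open symbols for genes not called. All EBF and COX8 genes and the member of the PGC-1 and PPAR families lie below 0, both deiodinases lie above, and the uncoupling protein and two-pore channel families lie on both sides.

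Levels can be ordered between genes only per length, and the following are means of normalized counts per kilobase of the deposited gene length. Before grafting, Cox8b was highest (1329), followed by Kcnk3 (293), Ebf2 (90.0), Prdm16 (49.9), Ppara (45.4), Ppargc1a (22.1), Tmem26 (13.8), Ucp1 (8.68), Dio2 (0.915) and Zic1 (0). Prdm16 and Ppara overlapped in their ranges over libraries, as did Tmem26 and Ucp1, and the other neighbours did not. In grafts the order was Cox8b (45.9), Zic1 (32.0), Tmem26 (30.2), Ebf2 (22.3), Prdm16 (14.4), Dio2 (12.9), Kcnk3 (4.49), Ppara (1.69), Ppargc1a (1.55) and Ucp1 (0.597). Only Ebf2 and Prdm16 were neighbours without overlap there. Zic1 thus moved from the last place to the second, and Kcnk3 from the second to the seventh, although Zic1 and its neighbours overlapped in the grafts.

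**Figure D3:**
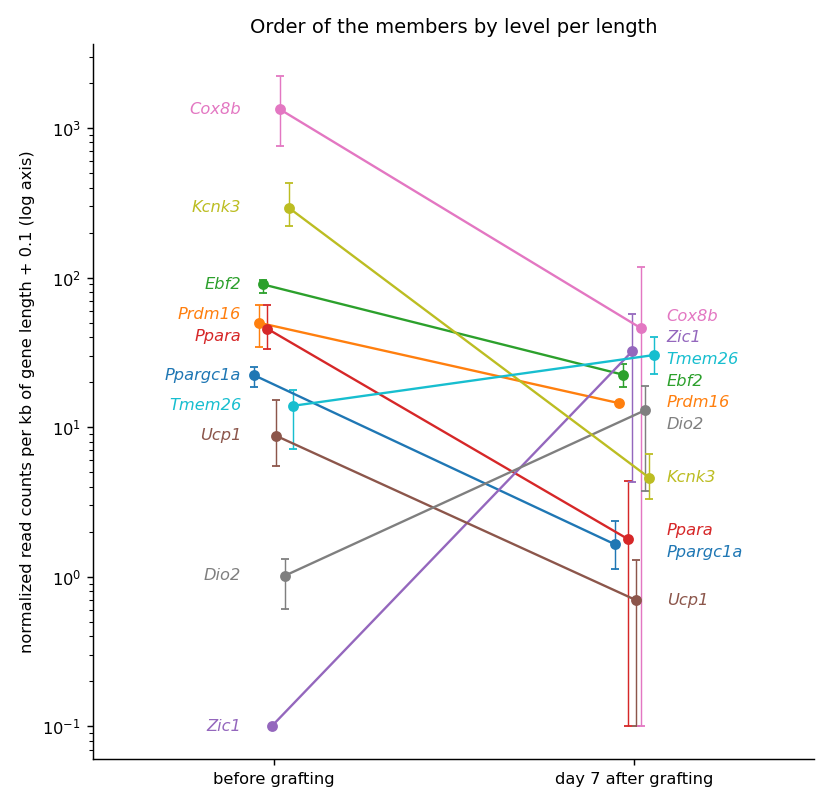
Mean normalized read counts per kilobase of gene length plus 0.1 (log axis) of the 10 genes before grafting (left) and at day 7 (right), with bars from the lowest to the highest library. Before grafting the genes span from 0 for Zic1 to 1329 for Cox8b, and in grafts from 0.597 for Ucp1 to 45.9 for Cox8b, with most bars overlapping.

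Within a group, the 10 genes did not rank the libraries alike. Before grafting, replicate 2 was highest for Cox8b, Kcnk3, Ppara and Prdm16, and it also had the highest white adipocyte sum (486496, against 345418 and 324086 in replicates 1 and 3). Ebf2 (665.6, against 662.6 in replicate 1) and Dio2 (7.1, against 5.9) were highest in replicate 2 by small margins. The same library was lowest for Tmem26 and for Ppargc1a (122.6, against 166.6 and 148.5 in replicates 1 and 3). It also had the lowest B and T cell sum (5736). Ucp1 was highest in replicate 3. In the grafts, replicate 1 had the highest white adipocyte sum (25846, against 9259 and 6424) and the lowest fibroblast and progenitor sum (606939, against 1026910 and 917105). It was lowest for Dio2, Zic1 and Tmem26, and it had no read of Ppara or Ucp1. Kcnk3 had 26, 15 and 13 reads in the grafts and Ebf2 181, 159 and 129. Both were highest in replicate 1, Kcnk3 on few reads. The grafts' Prdm16 values lay close together. Cox8b was highest in graft replicate 3, which had the lowest adipocyte sum, and Ppara in graft replicate 2, on 17 reads. The part of these marker shifts in the genes' levels was not tested.

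**Figure D4:**
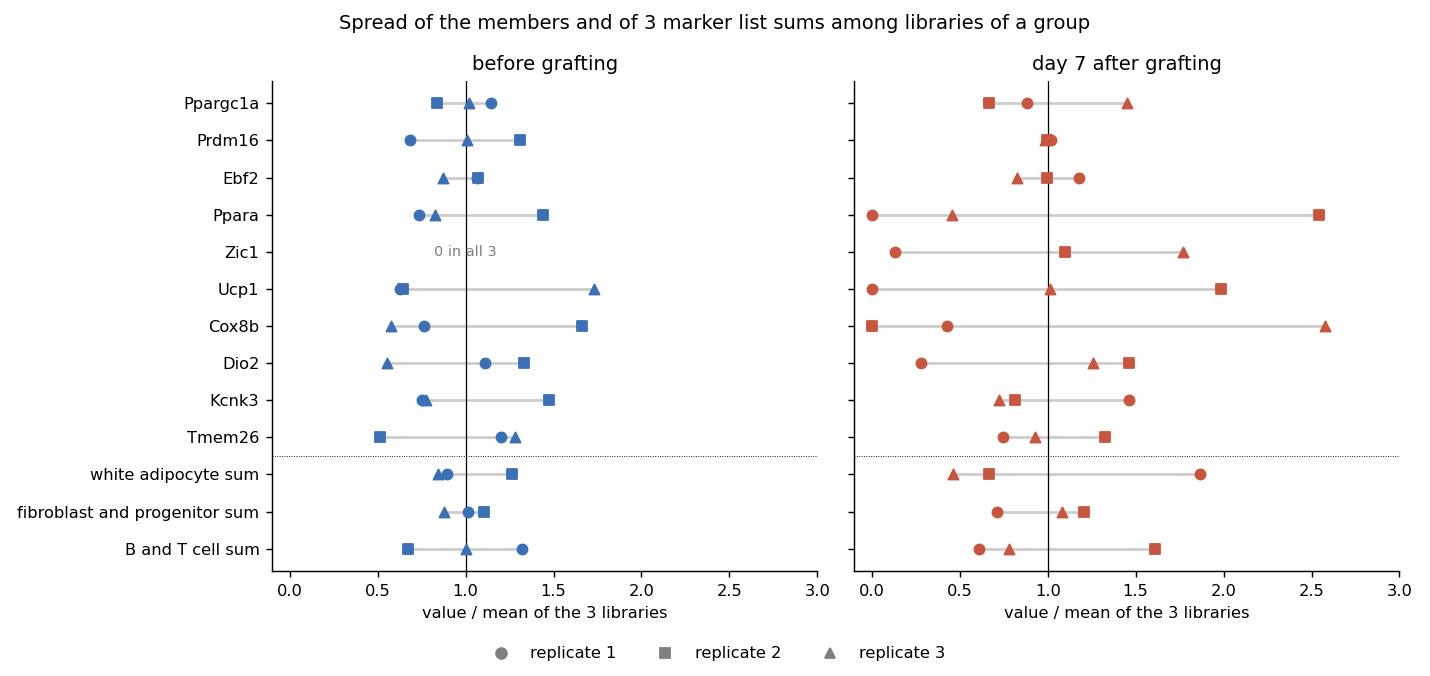
Value of each library divided by the mean of its group (horizontal axis) for the 10 genes and, below the dotted line, for the summed levels of 3 marker lists, before grafting (left) and at day 7 (right), with symbols for replicate numbers. Prdm16 shows almost no spread in the grafts, whereas Ppara, Cox8b, Ucp1 and Zic1 had a library at or near 0 and another well above their mean.

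The genes closest to each member in pattern were found as the 3 tested genes with the smallest root mean square difference of centred log2(value + 1) over the 6 libraries. Ebf2 was closest to Fam120c (0.0879), Mecr and Chst1, and Prdm16 to Gm9905 (0.111), Pdhx and Crls1. Kcnk3 was closest to Ppp1r1a (0.196), Pcx and Ctcflos, and Ppargc1a to Atp6v0e2 (0.173), Angptl7 and Insrr. Dio2 was closest to Mmp3 (0.310), Adamts16 and Slc6a17, Zic1 to Mmp10 (0.444), Crabp1 and Lrrc15, and Tmem26 to Mmp25 (0.131), Gm48427 and Batf2. Mmp3, a stromelysin gene, showed the low graft replicate 1 of Dio2 at a much higher level, with 3637, 16626 and 10188 normalized counts in the grafts. Ppara (Grb7, 0.704) and Cox8b (Cytl1, 0.781) had no close match. Ucp1 was closest to Itih3 (0.333), Cntn1 and Cpne5, which were themselves scarce in the grafts (means of 2.3, 1.3 and 2.0). Among the 10 genes themselves, the closest pair was Ebf2 and Prdm16 (0.352).

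The wider programme was described by lists of related genes, the 10 members left out. Over all lists, 98 genes were tested, 61 of which were lower and 28 higher (16 higher with ribosomal protein genes at no change). Each count is to be set beside the 39.2% lower and 41.3% higher of all tested genes. Of these 89 calls, 10 were lost in at least 1 fit that left out a library, among them those of Alpl, Crem, Fabp3, Gamt, Hoxc9, Ppard, Slc25a20, Slc25a27 and Wwtr1. Of 14 tested brown fat transcription factors and coregulators, 7 were lower and 5 higher, with a median log2 fold change of -0.58 against 0.28 for all tested genes. Irf4, the cold-induced partner of PGC-1α, fell from 1002 to 112.0 (-3.23). Like the B and T cell sum, it was lowest in replicate 2 before grafting (862.1) and highest in replicate 2 among the grafts (172.6). The part of lymphocytes in the fall of Irf4 was not tested. Cebpb, which pairs with PRDM16 and also drives inflammatory transcription, rose from 963.5 to 9004 (3.32), and Zfp516, a cold-induced activator of Ucp1, rose from 435.1 to 1539 (1.82). Of the repressors of the brown programme, all 7 tested were lower (median -1.31). For 1 of them, Wwtr1, this rests on a log2 fold change of -0.32 whose call was lost when any 1 of the 6 libraries was left out, with a replicate block, without the trend and with a pseudocount of 5. The repressors with the largest falls were Foxo1 (-2.24) and Nrip1 (-1.63), the gene of the corepressor RIP140.

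Of 10 tested thermogenic effectors, 7 were lower and 3 higher (median -1.74). Cidea, a lipid droplet protein gene abundant in brown and beige fat, went from 877.2 normalized counts to 1 read over the 3 grafts, or 2660-fold lower (95% counting interval 475 to 104642). Otop1, a proton channel gene of brown fat, fell from 116.8 to 4.7 (-4.95), or to 1.45 without graft replicate 1 (-5.82), and the log2 fold change was -4.03 without graft replicate 3. Gk, glycerol kinase, rose from 138.1 to 1568 (3.46). Fabp3, a fatty acid carrier, rose from 4.7 to 38.9 (2.66, limma adjusted p = 0.0188). That graft mean was 21.8 without graft replicate 3, and the call was lost without before replicate 3 (2.24), with the replicate numbers as a block (adjusted p = 0.0698) and under the ribosomal protein scaling (2.0).

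Of the 16 tested PPARα targets, 12 were lower and 3 higher, with a median of -2.01. The peroxisomal oxidation gene Ehhadh fell from 2064 to 57.1 (-5.16) and Vnn1, a pantetheinase gene, from 294.8 to 12.8 (-4.49), while Plin2, which coats lipid droplets in many cell types, rose from 5916 to 16498.5 (1.49). Creatine and calcium cycling, which make heat without UCP1, had 3 genes lower and 3 higher of 6 tested (median -0.13). The calcium release channel gene Ryr2 went from 39.3 normalized counts to 1 read over the 3 grafts, or 117-fold lower (95% counting interval 21.1 to 4770). Alpl, a phosphatase gene, fell from 82.9 to 29.5 (-1.53), a call lost without before replicate 2 (-1.46). The creatine transporter gene Slc6a8 rose from 368.9 to 2647 (2.84) and Ckb, creatine kinase B, from 510.7 to 1024 (0.99), which lost its call with ribosomal protein genes at no change (0.24).

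The adrenergic and cyclic AMP input had 6 genes lower and 3 higher of 9 tested (median -1.48). Adrb3, the beta-3 receptor through which noradrenaline acts on fat, went from 5265 ± 136 to 8.6 ± 9.1 (-9.49), and Adrb1 from 217.7 to 3.7 (-6.14), or to 3.43 and 0.495 without graft replicate 1 (-10.22 and -7.13). Without graft replicate 2 the log2 fold change of Adrb1 was -5.40. Adra2a, an inhibitory receptor, rose from 88.9 to 367.5 (2.0), and Pde4b, which degrades cyclic AMP, from 595.4 to 2782 (2.22). The thyroid hormone axis had 5 genes lower and 3 higher of 9 tested (median -0.83). Thrsp, a lipogenic target of thyroid hormone, went from 37193 to 26.9 (-10.67, or -9.92 without graft replicate 2), and Thrb, a receptor gene, fell from 776.0 to 69.8 (-3.27), with a mean of 489.9 before grafting without before replicate 2. Slc16a10, an iodothyronine and amino acid transporter gene, rose from 744.6 to 1378 (0.89), a call lost with ribosomal protein genes at no change (0.15).

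Markers of beige cells and of position had 6 genes lower and 1 higher of 9 tested (median -1.27). Tbx1, a beige marker, fell from 133.8 to 7.9 (-3.94) and Slc27a1, a fatty acid transporter gene, from 14885 to 1995 (-2.93). Tnfrsf9, known as CD137 on beige precursors and also on activated lymphocytes, rose from 75.3 to 1145 (3.84). Classical brown fat markers had 6 genes lower and 1 higher of 8 tested (median -2.20). Ntrk3 fell from 928.9 to 12.2 (-6.22), Sncg from 4216 to 230.6 (-4.40, or to 134.5 without graft replicate 1), and Hspb7, a small heat shock protein gene, rose from 24.5 to 486.8 (3.90). Per kilobase, Sncg stood at 4948 before grafting, near the white adipocyte marker Plin1 (4517) and far above Ucp1 (8.68). The fall of Sncg is therefore not read as one of brown fat alone. Without graft replicate 3 the graft mean of Hspb7 was 296.9 (3.30), and without graft replicate 2 its log2 fold change was 4.66. Secreted factors of brown fat had 2 genes lower and 3 higher of 7 tested (median -0.50). Nrg4, a neuregulin, fell from 2718 to 127.3 (-4.48) and Pm20d1, an enzyme gene of N-acyl amino acids, from 98.6 to 7.6 (-3.73, or -3.08 without graft replicate 2). The stress hormone gene Gdf15 rose from 10.8 to 327.7 (5.32, or 4.30 without before replicate 2 and 5.91 without before replicate 1) and the guidance factor gene Slit2 from 43.9 to 514.4 (3.57). The 15 tested paralogues of the 10 genes had 8 lower and 6 higher (median -1.13).

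**Figure D5:**
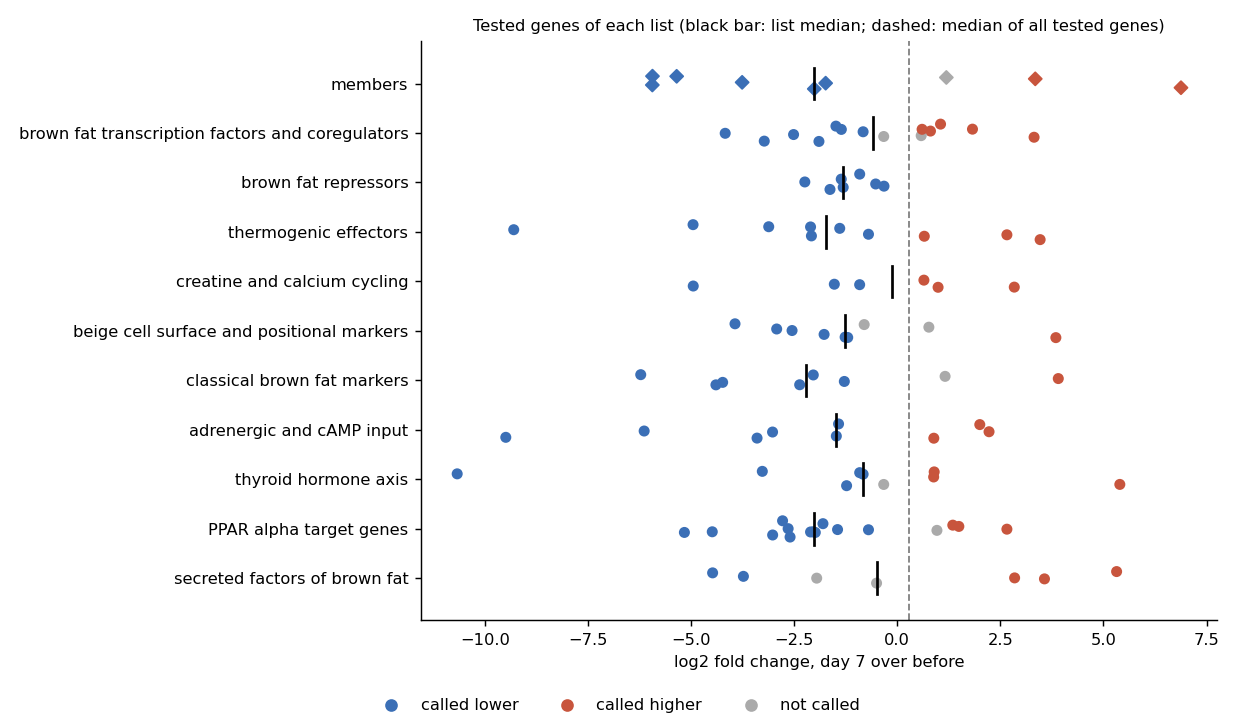
Log2 fold change of grafts over fat before grafting for each tested gene of 10 lists and of the members (top row, diamonds), blue where called lower, red where called higher and grey where not called, with a black bar at each list's median and a dashed line at 0.28, the median of all tested genes. The medians run from -2.20 for classical brown fat markers to -0.13 for creatine and calcium cycling, and the repressors show no higher gene. The rightmost diamond is Zic1, at 0 reads before grafting, whose fitted value of 6.88 depends on the pseudocount (7.87 with 0.5 and 4.64 with 5).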

How the data were processed

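RNA was extracted from fat with Trizol and sequenced from 6 libraries, per the labels. The authors deposited a normalized signal per gene. Judged from the values it is the read count over a size factor of the library, since values were whole multiples of 1 step in every library (100% within 0.01 reads, steps 0.96979 to 1.01304). The deposited gene lengths (unit: other, base pairs) scaled levels per kilobase. The submitters' processing notes name Bowtie 0.12.2, HISAT2 2.0.5, mm8 and mm9, but 12029 of 12163 listed genes lay within 1000 bp of their GENCODE M21 position on GRCm38. For the counter, the strand setting and the gene filter, nothing was given in the sources used here. Full depth is unknown, since the table holds listed genes only.

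Limma 3.58.1 (R 4.3.3; mean trend, robust) was run on log2(value + 1) for genes with at least 10 in at least 3 libraries, two-sided. Its p-values were adjusted by Benjamini-Hochberg over 55450 annotated genes, unlisted and filtered genes counting as untested at a p of 1. The script was tested on simulated data. Tables were handled in Python 3.11.15 with pandas 2.3.3 and scipy 1.17.1. The ± values are SDs of 3 libraries, and p-values measure the spread between these libraries. The members, lists and marker lists were chosen with earlier results of these data known. Named are the members, their listed paralogues, and per list up to 2 called genes of largest change per direction (mean of at least 10, groups not overlapping). The alternatives were other scalings, pseudocounts, filters, adjustment, a replicate block and leaving out libraries.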

Additional observations from a re-analysis of the deposited data

How the results depend on the processing

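The 6 lower members were 7 without the filter and 7 under a scaling that held ribosomal protein genes level, Ucp1 being the added one, and 5 to 6 with a library left out. The 2 higher members were 3 with p-values adjusted over tested genes alone, and 0 to 2 with a library left out: without a graft, Dio2 and Zic1 could not pass a filter of 3 libraries. With a filter of 2 libraries, added after seeing the data, the counts were 5 to 6 and 2. Over all tested genes, 2770 to 3978 were lower and 3338 to 3982 higher with a library left out, and 5614 were lower and 1902 higher with ribosomal protein genes at no change, or 5074 and 3542 with equal upper quartiles. Of the list genes, 52 to 67 were lower over all settings, and 25 to 31 higher apart from 16 with ribosomal protein genes at no change. That scaling reversed Acsl5 (-0.0907), Atp2a2 (-0.10), Nrf1 (-0.14) and Ppard (-0.30). The log2 difference of Ucp1, -2.92, was -1.60 with a pseudocount of 5, where Ppara was -4.18, Cox8b -4.94 and Dio2 2.71, all called. With the replicate numbers as a block, 6 members were lower and 2 higher, 61 and 26 list genes, and 3644 and 3912 of all tested genes. Same-numbered libraries correlated at -0.157, -0.127 and 0.0407 after removing group means, so the numbers were not taken as pairs. The planned edgeR and DESeq2 alternatives were not run: reads had to be worked back from normalized values, and graft replicates 1 and 3, with steps closest to 1, did not pass a stricter check of that, so read numbers printed here rest on the step read from the values. The selected table limits all p-values, and depth limits Ucp1, with 3 reads in grafts.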

Other observations

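Genes with no read before grafting were looked at after the values of Zic1 had been seen. Of the listed genes, 271 had no read in fat before grafting, and 59 of these had at least 10 normalized counts in every graft, among which Zic1 was the 14th by graft mean. Cxcl3, a neutrophil chemokine gene, led with 4945, 7988 and 4671 in the grafts. Crabp1, which encodes a retinoic acid-binding protein, had 60.3, 282.2 and 541.1, in the same order of grafts as Zic1. Wt1, a transcription factor gene of mesothelium and of some fat depots, also had no read before grafting and had 97.4, 63.0 and 76.2 in the grafts, with graft replicate 1 highest, unlike Zic1. Of the 4 listed mesothelium markers 2 were tested, Wt1 being higher and Lrrn4 lower (67.4 to 5.0, log2 fold change -3.95). The other markers, Upk3b and Msln, were too scarce to be tested, with all grafts above all libraries before grafting. Upk3b had no read before grafting and 24.1, 1.9 and 3.0 normalized counts in the grafts. Msln went from a mean of 3.3 to 26.1, 18.4 and 7.9 in the grafts. Conversely to the genes with no read before grafting, 378 listed genes had no read in any graft, none of them a member.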
